A study of Mus musculus with 15 samples.

Results

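Non-side population cells of the mouse glioma line 3447 were compared with non-side population cells of untransformed mouse neurospheres, on 3 arrays each. The members are the 6 arrays, of 15 in the series, whose titles name non-side population cells of sample 3447 or non-side population neural stem cells. Side population (SP) cells are those that keep little of a DNA-binding dye in flow cytometry because ABC transporters pump it out. Non-SP cells are the cells outside that gate. The comparison therefore sets tumour cells beside neural stem and progenitor cultures in the cells that the gate leaves behind.

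The 3447 tumorspheres, free-floating cultures of tumour cells, came from a brain tumour of a S100beta-verbB;p53-/- or S100beta-verbB;p53+/- mouse; which of these line 3447 had was not given in the sources used here. They were grafted into the brain. The host strain, NOD.Cg-Prkdc<scid>Il2rg<tm1Wjl>/SzJ, lacks mature T, B and NK cells, and tumorspheres recovered from it, in triplicate, were cultured again and sorted. The neurospheres came from 3 independent mice of the same S100beta-verbB;p53-/- or S100beta-verbB;p53+/- genotypes, so both groups carried the v-erbB transgene and lacked at least one p53 allele. Another passage of the study description speaks of mice injected with neurospheres, so their route to culture is not certain. No ages were given. The S100beta promoter directs v-erbB, a viral and constitutively active relative of the EGF receptor, to S100beta-expressing cells, mainly glia. The 3 tumour arrays share 1 line, so their own spread is that between cultures of the line and not between tumours. The tests pool the spread within all 5 groups of the 15 arrays. Each standard error therefore also draws on arrays outside this comparison.

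Neurospheres hold neural stem cells and their early descendants, kept dividing by growth factors. Oligodendrocyte progenitors arise from such cells under the transcription factors Olig2 and Sox10, carry the PDGF receptor Pdgfra and the proteoglycan Cspg4 (NG2) on their surface, and later make the myelin sheath. Astrocytes arise from the same stem cells, clear glutamate and potassium, and join one another through gap junctions. Overactive EGF receptor signalling and loss of p53 are common features of glioma.

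The deposited MAS5 signals of the 6 arrays had medians from 40.0 to 68.1, and 3'/5' signal ratios of 2.57 to 3.29 for actin and 1.34 to 1.51 for Gapdh. The first principal component of all 15 arrays held 51.0% of the variance and placed tumour and neurosphere arrays on opposite sides. Signals are quoted as deposited, in order of replicate number. Differences are log2(signal + 16) of 3447 non-SP minus neurosphere non-SP after quantile normalization, with the standard error (SE) of limma and p-values adjusted over all genes tested. A gene is called at an adjusted p under 0.05. Of 11908 genes tested, 1332 were called higher (11.2%) and 978 lower (8.21%) in the tumour cells, 19.4% in all, and the median difference over all genes was 0.04. For each gene list below, the counts called are to be read beside these shares. Centring arrays on their medians instead moved the median of all genes by 0.15, and 68.4% of calls were then higher against 57.7%. Called differences of at least 1 on the log2 scale were found in 981 genes upwards (8.24%) and 651 downwards (5.47%). Differences of at least 4 were found in 68 genes upwards (0.571%) and 54 downwards (0.453%). The signal ranges of both groups were separate for 2535 genes upwards (21.3%) and 2083 downwards (17.5%), 38.8% in all. Of the 9598 genes not called, 4960 had a 95% interval within 1 of 0 and 4638 had one that reached further, so differences above 2-fold could not be resolved for the latter.

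**Figure D1:**
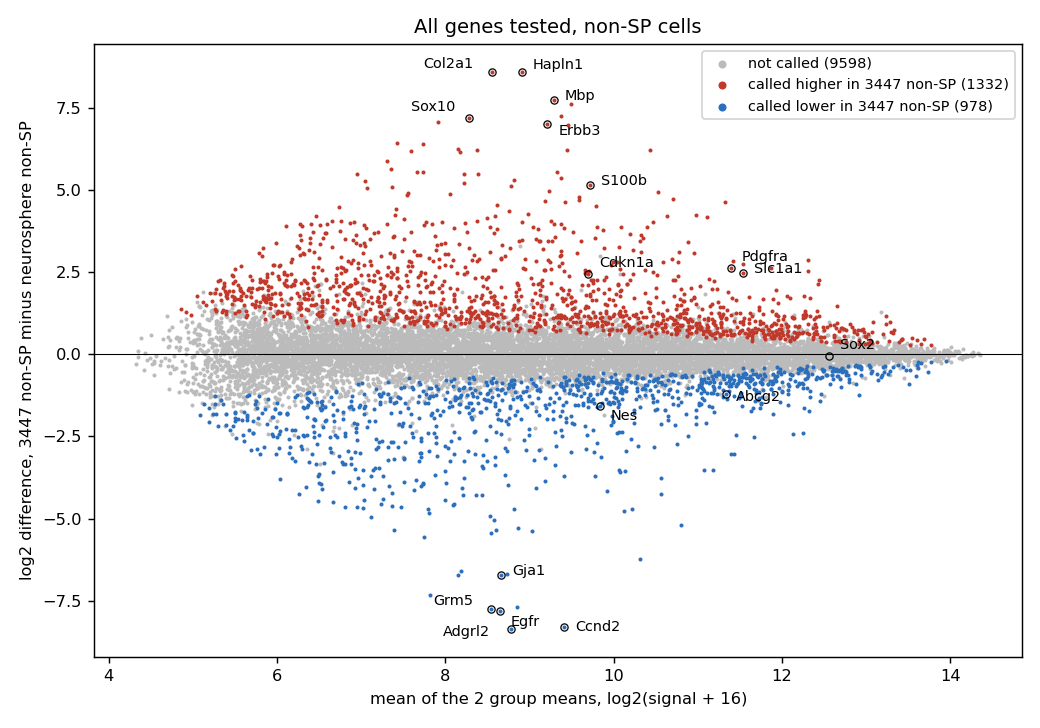
Log2 difference of 3447 non-SP minus neurosphere non-SP (vertical) against the mean of both groups' log2(signal + 16) (horizontal), 1 point per gene of 11908, with called genes in red (1332 higher) and blue (978 lower). Col2a1 at 8.61 and Adgrl2 at -8.36 mark the ends, Sox2 at -0.04 lies on the zero line, and the differences narrow towards the highest signals.

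The 15 genes with the highest differences in the tumour cells included 5 of the cartilage matrix list, which was drawn up with earlier results known, and Mbp, Sox10, Erbb3 and Snai2. Col2a1, the main fibrillar collagen of cartilage, gave signals of 9430, 6093 and 7477 on the tumour arrays and 0.802, 2.53 and 4.85 on the neurosphere arrays. All 3 tumour arrays were thus high and all 3 neurosphere arrays near the floor of the scale, with a difference of 8.61 ± 0.31 (SE, adjusted p = 8.4e-11). Hapln1, the link protein that ties aggrecan to hyaluronan, gave 8700, 10365 and 10099 against 0.696, 16.8 and 13.2, a difference of 8.59 ± 0.47 (adjusted p = 3.37e-09). Its 3 other probe sets differed by between 1.98 and 5.38, so the size depends on the probe set. Acan, aggrecan itself, gave 9811, 11126 and 10255 against 10.2, 64.8 and 52.2, a difference of 7.63 ± 0.34 (adjusted p = 5.26e-10). The other 12 of the 15 highest were Mbp at 7.74, Susd5 at 7.26, Sox10 at 7.20, Dkk3 at 7.07, Erbb3 at 7.02, Col9a1 at 6.99, Fmod at 6.45, Snai2 at 6.41, Dusp15 at 6.27, Nxf3 at 6.24, Padi2 at 6.23 and Capn6 at 6.22. For 9 of the 15 the neurosphere signals lay below the array median on all 3 arrays, where the size depends most on the added constant. Padi2, at 242, 52.6 and 256, was not among the 9. The Col2a1 difference was 11 with 1 added and 6.80 with 64 added, and it was called with either.

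The lowest difference was that of Adgrl2. This gene, an adhesion receptor of the latrophilin family, gave 1.21, 22.6 and 3.45 on the tumour arrays and 6189, 8269 and 9420 on the neurosphere arrays, a difference of -8.36 ± 0.44 (adjusted p = 2.27e-09). Ccnd2, cyclin D2, gave 0.624, 30.6 and 52.7 against 9204, 13314 and 13266, a difference of -8.31 ± 0.69 (adjusted p = 3.67e-07). Egfr gave 0.858, 13.9 and 16.4 against 3940, 7551 and 7400, a difference of -7.82 ± 0.44 (adjusted p = 4.23e-09). In each of these genes every tumour array was at 52.7 or less and every neurosphere array at 3940 or more. The rest of the 15 lowest were Grm5 at -7.74, Mlc1 at -7.69, Slc4a4 at -7.33, Lratd1 at -6.73, Gja1 at -6.72, Robo1 at -6.68, Ccbe1 at -6.60, Gpm6a at -6.25, Tmem229a at -5.57, Car2 at -5.44, Igfbp2 at -5.39 and Bex4 at -5.35. Another probe set of Robo1 differed by only -0.35, so the size of that gene's difference depends on the probe set. Of the 1332 genes called higher, 244 lay below the array median on all 3 neurosphere arrays, and 162 of the 978 called lower lay below it on all 3 tumour arrays.

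The 250 bases before the start of Hapln1, Acan, Adgrl2 and Egfr are shown because these are the 2 highest and the 2 lowest genes with an entry in the RefSeq promoter table of assembly GRCm38.p6; Col2a1, Mbp and Ccnd2 had none under their symbols. They are at chr13:89540386-89540635 on the plus strand (Hapln1), chr7:79052976-79053225 on the plus strand (Acan), chr3:148954636-148954885 on the minus strand (Adgrl2) and chr11:16751953-16752202 on the plus strand (Egfr). Capitals mark matches to the SOX cores ACAAAG and ACAATG, the E-box CACCTG bound by Snail-type repressors, or the TATA box TATAAA, each searched on both strands.
Hapln1: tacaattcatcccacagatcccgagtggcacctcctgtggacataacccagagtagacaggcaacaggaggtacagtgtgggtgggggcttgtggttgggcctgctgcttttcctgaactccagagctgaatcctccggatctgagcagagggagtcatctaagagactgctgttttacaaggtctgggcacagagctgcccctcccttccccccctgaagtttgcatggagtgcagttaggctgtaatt
Acan: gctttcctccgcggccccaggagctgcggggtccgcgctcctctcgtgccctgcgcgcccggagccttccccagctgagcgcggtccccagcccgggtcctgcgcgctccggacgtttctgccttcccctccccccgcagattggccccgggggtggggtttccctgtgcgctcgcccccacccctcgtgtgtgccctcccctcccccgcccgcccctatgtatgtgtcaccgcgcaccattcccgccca
Adgrl2: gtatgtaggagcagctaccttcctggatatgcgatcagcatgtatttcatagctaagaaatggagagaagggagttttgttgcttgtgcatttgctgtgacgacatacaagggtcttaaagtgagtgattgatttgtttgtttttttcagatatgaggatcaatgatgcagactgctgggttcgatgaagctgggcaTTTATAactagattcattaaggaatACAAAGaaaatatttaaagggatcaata
Egfr: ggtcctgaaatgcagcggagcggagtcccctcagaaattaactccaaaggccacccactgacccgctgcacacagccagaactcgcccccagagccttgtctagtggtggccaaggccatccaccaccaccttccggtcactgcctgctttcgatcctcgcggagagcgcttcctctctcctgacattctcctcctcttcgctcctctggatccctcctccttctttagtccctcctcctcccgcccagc
The Adgrl2 window held a TATA box match on the strand opposite to the gene, so that its reverse complement stands in the line above, from 53 to 48 bases before the start. It also held the SOX core ACAAAG on the gene's own strand, from 28 to 23 bases before the start. The other 3 windows held none of these letters. GC content was 54.4% for Hapln1, 74.4% for Acan, 37.6% for Adgrl2 and 60.8% for Egfr, with 2, 26, 3 and 11 CpG pairs. Genes called higher by at least 2 on the log2 scale numbered 421 (3.54% of those tested) and those called lower by as much 271 (2.28%), of which 327 and 202 had a promoter in the table. CACCTG was in 23.2% of the promoters of the former, 15.8% of those of the latter and 14.8% of the 9667 promoters of genes tested, against 17.1% of all 27025 promoters. ACAAAG was in 10.7%, 14.9% and 11.4%, against 16.5% of all promoters. ACAATG was in 6.12%, 6.93% and 5.90%, against 11% of all. TATAAA was in 8.56%, 9.90% and 6.22%, against 13.0% of all. These shares are descriptions and were not tested.

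Among oligodendrocyte genes, most tested myelin genes were higher in the tumour cells, the progenitor genes were mixed, and several late myelin genes were low in both groups. In bulk arrays, fewer cells of a type and less RNA per cell cannot be told apart. Of 16 tested genes on the oligodendrocyte progenitor list, 6 rose and 2 fell, with a median difference of 1.30 against 0.04 over all genes. Sox10, the lineage factor that drives myelin genes, gave 3372, 4922 and 3067 against 7.71, 1.40 and 20.7 (7.20 ± 0.35, adjusted p = 1.07e-09). Its 2 other probe sets differed by 3.57 and 4.66. Pdgfra gave 7184, 6708 and 6261 against 867, 2034 and 672 (2.63 ± 0.52, adjusted p = 0.00190), so the neurosphere cells also had clear signal, and the groups did not overlap. Cspg4, the NG2 proteoglycan, differed by 3.00 ± 0.39 and the secreted C1q-like protein C1ql1 by 2.89 ± 0.46. Gpr17, a receptor of progenitors on the way to myelination, and Vcan, the proteoglycan versican, rose by 1.92 and 1.34. Sox8, a close relative of Sox10, fell: its tumour signals of 678, 296 and 82.0 all lay under the neurosphere signals of 1410, 1298 and 1583 (-2.36 ± 0.52, adjusted p = 0.00416). Tnr, the matrix protein tenascin-R, fell by 1.16. Olig2 gave 2881, 2456 and 3057 against 5287, 4588 and 4200, groups that did not overlap, but its difference of -0.76 ± 0.32 was not called (adjusted p = 0.116). The call of Tnr was lost without tumour array 1 or 3, without neurosphere array 1 or 2, with arrays centred on their medians and with 1 added to the signal, and that of Vcan without neurosphere array 1.

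Of 11 tested myelin genes 9 rose and 0 fell, with a median of 3.47 that ran from 3.27 to 3.63 over the tumour arrays. Mbp, myelin basic protein, gave 9156, 8917 and 10059 against 6.25, 57.0 and 35.9 (7.74 ± 0.34, adjusted p = 5.26e-10). Its 6 other probe sets differed by between 3.23 and 8.27. Gjc3, a connexin of oligodendrocytes, rose by 4.28 ± 0.36 and Cldn11, the tight junction protein of myelin, by 4.23 ± 0.51. Bcas1, a marker of newly forming oligodendrocytes, rose by 4.17, the lipid enzymes Fa2h and Ugt8a by 3.53 and 3.16, Plekhb1 by 3.47, the myelin regulator Myrf by 2.12 and Cnp by 1.15. The difference of Enpp6 was 2.09 and that of Opalin -0.69, neither called. On the same list Mag, Mog, Mobp, Mal, Ermn, Aspa, Bmp4 and Gjb1 lay at or below the array median on all 6 arrays and were not tested. Mog, a surface protein of mature myelin, gave 1.27, 1.41 and 0.531 against 8.50, 12.9 and 1.12, low on every array. The 9 calls stood in each of the 6 fits that left out 1 array.

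Astrocyte genes were mostly lower in the tumour cells, with S100b as the main exception. Of 23 tested astrocyte and radial glia genes 2 rose and 11 fell, with a median of -1.66. Gja1, the connexin of astrocyte gap junctions, gave 1.13, 93.9 and 9.997 against 4131, 5819 and 2956 (-6.72 ± 0.75, adjusted p = 9.74e-06). Mlc1, a membrane protein of astrocyte endfeet, gave 33.2, 3.31 and 7.37 against 7810, 4875 and 7345 (-7.69 ± 0.43). Slc4a4, a sodium bicarbonate cotransporter, gave 1.05, 2.68 and 0.457 against 2607, 2158 and 4126 (-7.33 ± 0.44). Other probe sets of Slc4a4 differed by between -4.32 and -1.505, in the same direction. Slc1a3, the glutamate transporter GLAST of radial glia, kept high signal in both groups, at 1689, 3108 and 1782 against 11303, 9950 and 11322 (-2.40 ± 0.25). Tnc, tenascin-C, and Acsbg1, an acyl-CoA synthetase, fell by 3.77 and 4.12, and the glial factor Sox9 by 1.82. S100b, the endogenous gene whose promoter drives the transgene, gave 4299, 5804 and 5048 against 52.9, 83.3 and 477 (5.14 ± 0.58, adjusted p = 9.94e-06). Its lowest tumour signal lay far above its highest neurosphere signal, which was that of array 3. Aldoc, an astrocyte glycolytic enzyme, was called at 1.71 ± 0.50 (adjusted p = 0.0226), with neurosphere array 3 at 7296 just under the tumour range of 7410 to 8643. The Aldoc call was lost without any tumour array or without neurosphere array 1 or 2. Gfap, the intermediate filament of mature astrocytes, gave 0.995, 53.3 and 92.4 against 95.1, 37.1 and 5.21, overlapping and not called (0.06 ± 0.81, adjusted p = 0.969).

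Of 18 tested neural stem and progenitor genes 0 rose and 6 fell, with a median of -0.47. Sox2, the core transcription factor of neural stem cells, gave 5840, 5939 and 6062 against 6251, 6332 and 5726, overlapping, with a difference of -0.04 ± 0.11 and a 95% interval of -0.29 to 0.20. Nes, the intermediate filament nestin, gave 564, 441 and 570 against 1231, 2079 and 1464 (-1.56 ± 0.24, adjusted p = 0.000219). Nr2e1, the nuclear receptor Tlx, gave 324, 198 and 358 against 1076, 2176 and 1312 (-2.29 ± 0.48). Both were thus lower on every tumour array than on any neurosphere array. Prom1, the surface protein CD133 by which glioma stem cells are often sorted, gave 66.1, 35.8 and 24.8 against 164, 1029 and 248 (-2.62 ± 0.71, adjusted p = 0.0154). Hmga2, a chromatin protein of fetal stem cells, fell by 1.39 and the Notch target Hes1 by 1.16. The Prom1 call was lost without tumour array 2 or 3 or neurosphere array 2, and that of Hes1 without tumour array 2 or 3, without neurosphere array 1 or 3 and in 5 of the other settings.

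Among 20 tested neuron and neuroblast genes 1 rose and 7 fell, with a median of -0.83. The interneuron factor Dlx2 gave 203, 38.9 and 4.47 against 1526, 371 and 1053 (-3.67 ± 0.75) and its partner Dlx1 fell by 1.82. Gad1, the enzyme that makes GABA, gave 22.4, 48.3 and 1.89 against 346, 269 and 873 (-3.53 ± 0.60), and the synaptic protein Snap25 fell by 2.93 ± 0.58. Tubb3, a neuronal tubulin, went the other way, at 582, 387 and 497 against 172, 136 and 45.7 (2.03 ± 0.54, adjusted p = 0.0140). The Tubb3 call was lost without tumour array 1 or neurosphere array 3, and the count of neuron genes lower was 4 without tumour array 2 or neurosphere array 2. Of 9 tested ependymal and ciliated cell genes 0 rose and 2 fell, with a median of 0.19 and 5 genes above 0. Of the 15 with a probe set, 9 lay at or below the array median on all 6 arrays. The summed signal of the 15 was 3494 to 3825 against 6146 to 8277. The genes that fell were Rfx3, at -0.77, and Rfx4, a factor of radial glia and cilia. Rfx4 gave 240, 222 and 259 against 1439, 2818 and 2006 (-2.98 ± 0.36). The Rfx3 call was lost with arrays centred on their medians.

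Most markers of host and vascular cells lay at or below the array median on all 6 arrays. Of 17 microglia and macrophage genes with a probe set, 13 lay at or below the array median on all 6 arrays and 0 of the 4 tested were called. Their summed signal ran from 174 to 429 on the tumour arrays and from 340 to 473 on the neurosphere arrays. The defining genes C1qa and Aif1 ran from 0.989 to 1.72 and 1.205 to 3.78 in the tumour cells and from 1.24 to 3.90 and 1.53 to 12.3 in neurospheres. Of 14 endothelial genes 10 lay as low, Pecam1, Cdh5 and Cldn5 among them, and the summed signal was 311 to 408 against 473 to 646. Flt1, a VEGF receptor, was the 1 endothelial gene called, at 7.41, 2.70 and 25.5 against 249, 366 and 247 (-3.31 ± 0.63), while another of its probe sets differed by -0.57. The fibroblast and meningeal list had 3 genes higher and 3 lower of 10 tested. Those higher were Mgp at 5.55, Col1a1 at 3.60 and Ptgds at 1.18, and those lower Igfbp2 at -5.39, Fbln2 at -2.48 and Thy1 at -1.95. The Thy1 call was lost without tumour array 1 or neurosphere array 1 or 3, and with 1 added to the signal. On the same list Dcn, Lum, Col1a2, Igf2, Ogn, Aspn and Vtn lay at or below the array median on every array. The list's summed signal was 7287 to 11638 against 5095 to 11291, ranges that overlapped. Of 13 pericyte and smooth muscle genes 9 lay below the median on all 6 arrays, and the summed signal was 1400 to 1486 against 845 to 1838.

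**Figure D2:**
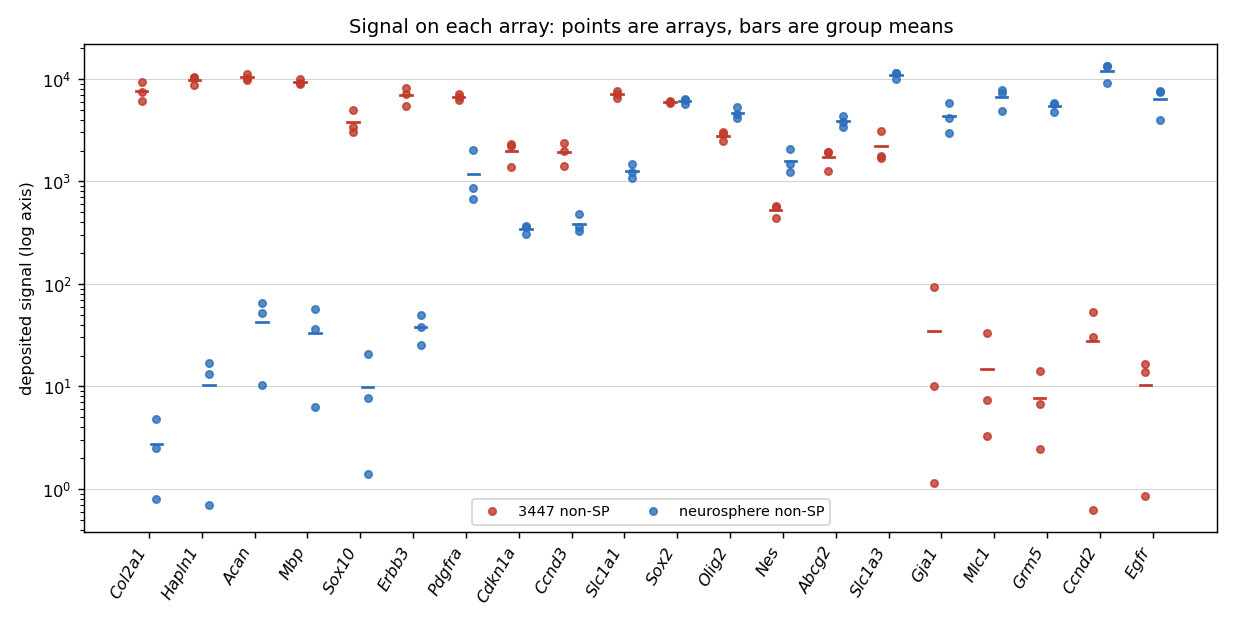
Deposited signal on a log axis for 20 genes, with 1 point per array (3447 non-SP red, neurosphere non-SP blue, 3 each) and bars at group means. Cartilage and oligodendrocyte genes at the left and Ccnd2 and Egfr at the right differ by orders of magnitude, while the Sox2 points of both groups overlap between 5726 and 6332.

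Of 18 tested cartilage matrix genes, 11 rose and 1 fell, and 5 of those that rose are among the 15 highest of all genes. The list had a median of 2.37 and summed signals of 53447 to 62395 against 9752 to 11469. On this list Col9a2, Comp, Matn1, Matn4 and Chad lay at or below the array median on all 6 arrays. Matn4, called at 1.21, lost its call without tumour array 1 or 2 or neurosphere array 1 or 2. That call was also lost in 5 of the other settings. The count higher was 10 in each of those 4 fits and with arrays centred on their medians. Collagen IX, which coats the collagen II fibril, was higher in 2 of its chains. Col9a1 gave 7871, 10405 and 6334 against 36.8, 31.0 and 88.4 (6.99 ± 0.40, adjusted p = 5.14e-09), and Col9a3 rose by 5.37, although another Col9a3 probe set differed by -0.06. Col9a2 was at 0.62 and not called. Collagen XI, the nucleating chain of those fibrils, rose by 4.03 for Col11a1 and 3.93 for Col11a2. The small leucine-rich proteoglycans Fmod and Prelp, which bind fibrillar collagen, rose by 6.45 and 3.52. Fmod gave 1542, 1760 and 1496 against 1.19, 0.934 and 3.79, so its 3 neurosphere signals were at the floor. Sox6, a cartilage and oligodendrocyte factor, rose by 1.16, while its partner Sox5 was at -0.36 and not called. Sox9, the factor that activates Col2a1 and Acan in cartilage, was the 1 gene that fell, from 7308, 7629 and 6417 to 2817, 2004 and 1440 (-1.82 ± 0.27, adjusted p = 0.000132). The gene list of cartilage was drawn up with earlier results of these arrays known, so its count is no independent evidence of its direction.

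Of 13 tested neural crest and transition factors 4 rose and 1 fell. Snai2, the repressor Slug of migrating crest cells, gave 1983, 2161 and 1703 against 3.85, 4.03 and 12.8 (6.41 ± 0.30, adjusted p = 7.4e-10). Foxc2, a forkhead factor of mesenchyme, gave 869, 1069 and 529 against 4.57, 3.64 and 99.2 (4.43 ± 0.62), and the mesenchymal factor Prrx1 rose by 1.96 ± 0.22. Zeb1, which acts in the same transition, fell by 0.90 ± 0.13 (adjusted p = 9.83e-05), from 14266, 15767 and 16118 to 9613, 8680 and 7930, a call lost with arrays centred on their medians. Twist1 was at 0.03 and Zeb2 at 0.26, neither called. The members thus did not move as one group.

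Collagens and other matrix genes split, with 7 higher and 4 lower of 26; 2 were lower without tumour array 1 or 3 or neurosphere array 2. Bgn, the proteoglycan biglycan, gave 794, 1094 and 1228 against 21.7, 27.8 and 9.96 (4.92 ± 0.38). Mgp, matrix Gla protein, an inhibitor of calcification, gave 480, 2565 and 2049 against 4.63, 25.3 and 17.0 (5.55 ± 0.57). The collagen chains Col1a1 and Col6a1 rose by 3.60 and 3.25, and the laminin chain Lama4 by 3.49. Lamb1, another laminin chain, fell from 498, 369 and 1238 to 40.0, 49.6 and 64.1 (-3.11 ± 0.44). Among proteases and their inhibitors, 7 of 17 rose and 4 fell. The membrane-bound metalloproteases Mmp16 and Mmp17 rose by 3.98 ± 0.26 and 2.49 ± 0.32. Mmp16 gave 2584, 2650 and 2590 against 229, 158 and 97.9. Timp1, an inhibitor of such enzymes, fell by 3.35 ± 0.56, while Timp2, Timp3 and Timp4 rose by 1.64, 2.16 and 1.25.

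Of 27 tested integrins and cadherins 4 rose and 9 fell, with a median of -0.10. Itgb3, the integrin beta-3 chain, gave 988, 2069 and 1444 against 1.65, 46.8 and 13.97 (5.54 ± 0.66), and its partner Itgav was at -0.08 and not called. The alpha chains Itga4, Itga5, Itga7 and Itga6 fell by 4.29, 3.33, 3.04 and 2.42, while Itga1, a collagen receptor chain, rose by 2.39. Itga6, a laminin receptor of neural stem cells, fell from 8734, 11562 and 10023 to 2033, 1571 and 2228. Cdh19, a cadherin of Schwann cells and oligodendrocyte progenitors, rose by 3.46 ± 0.46 and Cdh20 fell by 3.02 ± 0.43. In 3447 and neurosphere cells alike Itgb1 had no called difference (0.22).

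**Figure D3:**
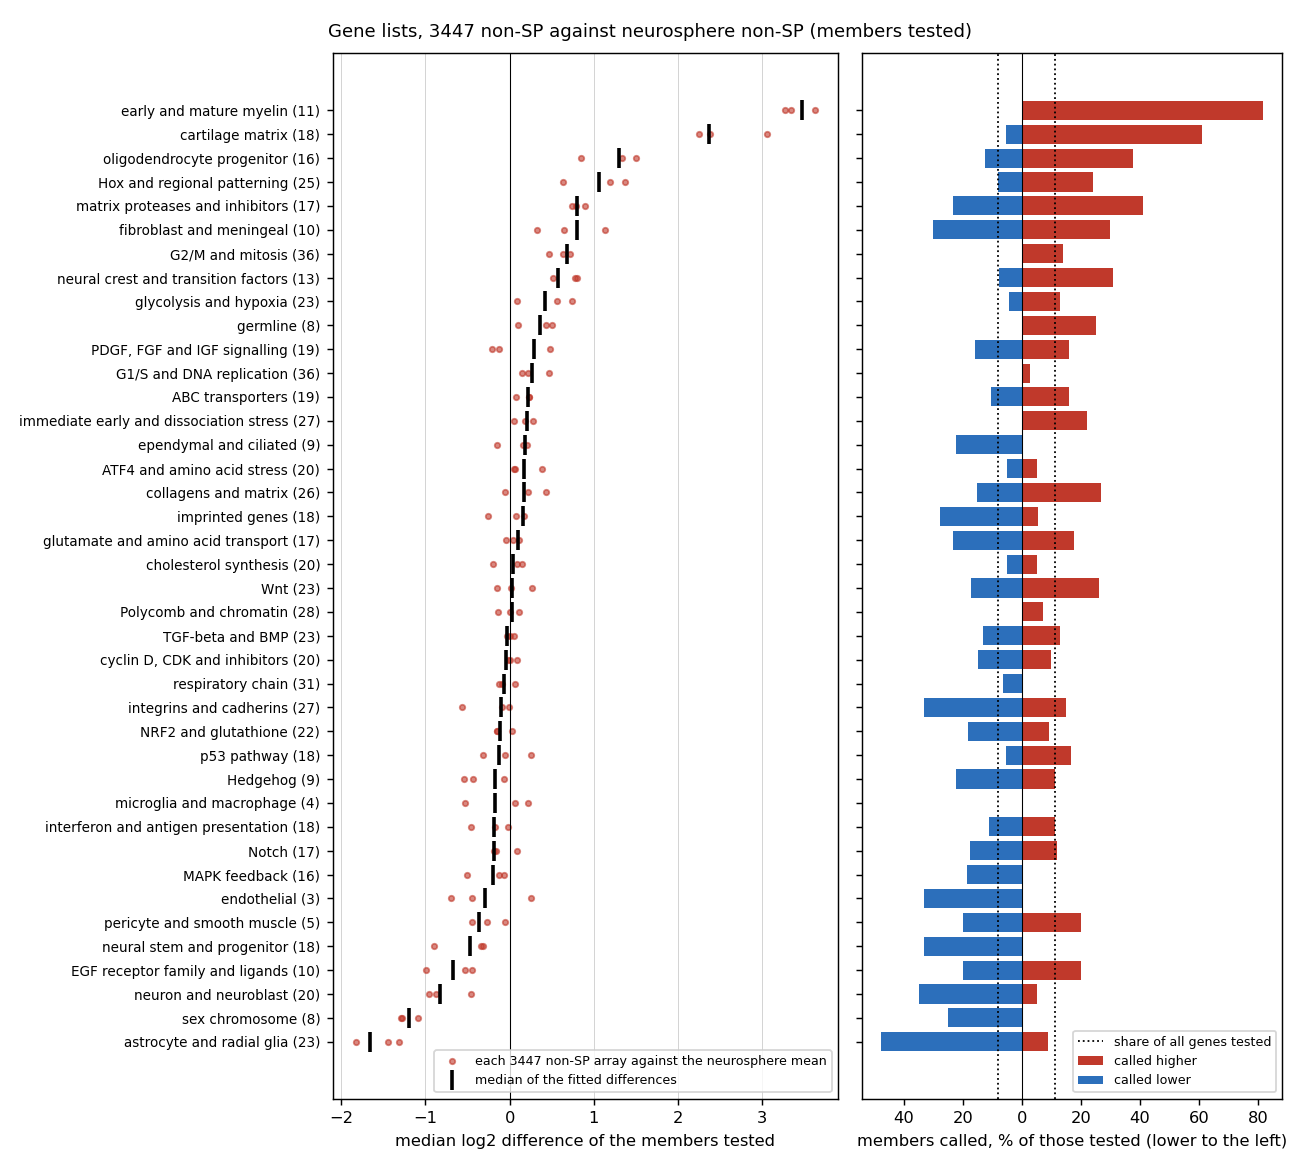
Left, median log2 difference of the tested members of each of 40 gene lists (black bar) with the medians of the 3 single tumour arrays against the neurosphere mean (red points). Right, percent of tested members called higher (red) or lower (blue), with dotted lines at the shares of all genes, 11.2% and 8.21%; myelin and cartilage stand at the top and astrocyte genes, at -1.66, at the bottom.

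The EGF receptor family, to which the v-erbB transgene belongs, moved in both directions. Of 10 tested receptors, ligands and inhibitors 2 rose and 2 fell. Erbb3, a receptor for neuregulins, gave 5426, 8199 and 7105 against 38.4, 25.1 and 49.8 (7.02 ± 0.32, adjusted p = 7.34e-10), opposite to Egfr. Erbb2, its usual partner, gave 1.57, 1.66 and 32.6 against 25.6, 2.26 and 62.5, above the array median only on neurosphere array 3 (median 45.5). Erbb4 lay at or below the array median on all 6 arrays. Tgfa, a ligand of the EGF receptor, gave 370, 557 and 529 against 78.5, 86.7 and 32.8 (2.69 ± 0.29, adjusted p = 6.48e-06). Hbegf and Btc, other ligands, were at -1.01 and -0.98 and not called. Lrig1, which marks the receptor for degradation, gave 155, 116 and 141 against 2875, 2226 and 1670 (-3.85 ± 0.34). Other Lrig1 probe sets differed by between -3.70 and 0.30, and those of Egfr by between -7.01 and -0.44. Whether an Egfr probe set also reads the transgene was not given in the sources used here.

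Feedback genes of the MAPK pathway, which EGF receptors feed, had a median of -0.20. Of 16 tested 0 rose and 3 fell, namely Spry4 at -1.59, Dusp5 at -1.499 and Spry2 at -0.59. Dusp6, a phosphatase induced by ERK activity, gave 6404, 4631 and 4735 against 4004, 4961 and 6026 (0.08 ± 0.18, 95% interval -0.32 to 0.47). Etv5, an ERK-induced factor, was at -0.26 ± 0.25. The Spry2 and Spry4 calls were each lost without tumour array 2 or 3 or neurosphere array 3, and Spry2 also without neurosphere array 1 and in 4 of the other settings. The list had 1 gene lower without tumour array 2 or 3 or neurosphere array 3.

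Of 19 genes of PDGF, FGF and IGF signalling 3 rose and 3 fell, 15.8% each against 11.2% and 8.21% of all genes. Besides Pdgfra, its ligand Pdgfa rose by 1.08 ± 0.29 and the receptor Fgfr2 by 1.51 ± 0.33. Pdgfa gave 8819, 6797 and 8158 against 6027, 2843 and 2709. Its call was lost without tumour array 1 or neurosphere array 2 or 3. The growth factor Fgf1 fell from 1164, 600 and 3358 to 53.5, 32.2 and 22.3 (-4.59 ± 0.54). The IGF-binding proteins Igfbp2 and Igfbp3 fell by 5.39 and 2.51. In the BMP pathway the receptor Bmpr1b fell by 4.08 ± 0.52 and the ligand Bmp2 rose by 2.07 ± 0.51. They were among 3 genes higher and 3 lower of 23 tested, 13% each against 11.2% and 8.21% of all genes. The count higher was 1 without tumour array 2 or neurosphere array 1, and 5 without neurosphere array 3. The Notch list had 2 genes higher (11.8%) and 3 lower (17.6%) of 17, against 11.2% and 8.21% of all genes. Only 1 was higher without tumour array 1 or 3 or neurosphere array 1 or 2. Hey2, a Notch target, gave 946, 743 and 321 against 62.4, 116 and 37.4 (2.93 ± 0.46), while the receptor Notch3 and the glycosyltransferase Lfng, which modifies Notch, fell by 2.95 and 3.22.

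Wnt genes had 6 of 23 higher and 4 lower, and secreted inhibitors stood among the former. Dkk3, a secreted Dickkopf family protein, gave 3130, 2654 and 2553 against 0.873, 21.1 and 0.909 (7.07 ± 0.36). Wif1, which binds Wnt ligands, gave 413, 489 and 240 against 0.831, 20.2 and 10.2 (3.96 ± 0.46), and Sfrp1, a decoy receptor, rose by 2.65 ± 0.58. The ligand Wnt5a fell by 3.97 and the ligand Wnt7a fell by 3.99. Wnt5a gave 51.7, 125 and 94.7 against 2030, 1615 and 1464. The pathway target Axin2 was called at -1.33 and the effector Lef1 at 2.56, with overlapping arrays for Lef1. The Axin2 call was lost in each of the 6 fits that left out 1 array, and that of Lef1 in 5 of them. Of 9 Hedgehog genes 1 rose and 2 fell, and one of the latter was the coreceptor Cdon at -3.28 ± 0.52.

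Cyclin D genes moved in opposite directions. Ccnd3 rose from 357, 326 and 479 to 1996, 1427 and 2347 (2.27 ± 0.26, adjusted p = 1.45e-05), against the fall of Ccnd2. Ccnd1 gave 13086, 11501 and 10424 against 12679, 14638 and 12778 and was not called (-0.30 ± 0.12, adjusted p = 0.0956). Cdk6, a kinase that D cyclins activate, gave 25.1, 31.7 and 3.25 against 60.3, 705 and 307 (-2.84 ± 0.72, adjusted p = 0.0108), and Cdk4 was at -0.18 and not called. The Cdk6 call was lost without tumour array 3 or neurosphere array 2. Another Ccnd3 probe set differed by 0.61, and other Ccnd2 probe sets by between -7.68 and -5.27.

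Cdkn1a, the p21 inhibitor of cyclin-dependent kinases and a p53 target, gave 2211, 1396 and 2305 against 310, 367 and 358 (2.44 ± 0.37, adjusted p = 0.000197). Every tumour array was thus above every neurosphere array in cells that lack at least one p53 allele in both groups. Phlda3, another p53 target, gave 270, 231 and 396 against 42.1, 55.0 and 54.1 (2.25 ± 0.33, adjusted p = 0.000157). Pmaip1, the target Noxa, fell from 354, 506 and 273 to 92.2, 56.4 and 48.0 (-2.18 ± 0.46, adjusted p = 0.00290). Over the p53 pathway list 3 of 18 rose (16.7%) and 1 fell (5.56%), against 11.2% and 8.21% of all genes. The median was -0.13, and Mdm2 and Ccng1 were at -0.22 and 0.23 and not called. Btg2, the third gene that rose (1.04), lost its call in each of the 6 fits that left out 1 array. Cdkn2a, the Ink4a/Arf locus, gave 481, 758 and 557 against 488, 597 and 905 (-0.13 ± 0.40, adjusted p = 0.861).

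Where 52.9% of all genes tested had differences above 0, 34 of 36 G2/M and mitosis genes did, with a median of 0.68. In this list 5 genes were called higher, 13.9% against 11.2% of all genes, and 0 lower. Mki67, the proliferation marker Ki-67, gave 3538, 3014 and 4943 against 1301, 2341 and 1753 (1.08 ± 0.32, adjusted p = 0.0251). The spindle proteins Nusap1 and Ndc80 rose by 1.202 and 1.07, Top2a, which untangles DNA, by 0.93, and the CDK-activating phosphatase Cdc25b by 0.91. None of the 5 calls stood without tumour array 3, and without it the list had 0 genes called. Without tumour array 1 or neurosphere array 1 it had 1. In the SP comparison of the same line the list's median was 0.06, and in that of line 4346 it was -0.20. Of 36 G1/S and replication genes 28 had differences above 0, with a median of 0.27, and only Mcm6 was called, at 0.74 ± 0.21 (adjusted p = 0.0202). Another Mcm6 probe set was at -0.01, and the call was lost without tumour array 3, without neurosphere array 1 or 3 and in 2 of the other settings.

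Abcg2, the dye transporter by which side populations are usually recognised, gave 1946, 1945 and 1261 in the tumour cells and 4348, 3422 and 3773 in the neurosphere cells, both outside the SP gate. Its difference of -1.198 ± 0.23 was called (adjusted p = 0.00134), and the groups did not overlap. Abcb1b, a P-glycoprotein gene, gave 129, 105 and 84.4 against 97.2, 178 and 110 and was not called (-0.16 ± 0.33, adjusted p = 0.788). Of 19 ABC transporters tested 3 rose (15.8%) and 2 fell (10.5%), near the 11.2% and 8.21% of all genes. The sterol exporters Abcg1 and Abca1 went in opposite directions, by 2.53 ± 0.57 and -1.70 ± 0.37. Abcg1 gave 478, 481 and 387 against 45.2, 37.3 and 155. Abcb1a, the other P-glycoprotein gene, lay below the filter, at 1.34 to 31.9 against 3.70 to 29.6.

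Of 17 genes of glutamate and amino acid transport 3 rose and 4 fell, with a median of 0.10. The transporter Slc1a1 (EAAC1) gave 6454, 7105 and 7637 against 1481, 1083 and 1231 (2.47 ± 0.26), opposite to Slc1a3. The receptor subunits Gria4 and Grik3 rose by 3.83 ± 0.27 and 3.98 ± 0.56. Gria4, an AMPA receptor subunit, gave 2014, 2106 and 2072 against 90.0, 196 and 123. The metabotropic receptors Grm5 and Grm3, both found on astrocytes, fell by 7.74 ± 0.31 and 2.51 ± 0.43. Grm5 gave 13.98, 6.76 and 2.47 against 5756, 4785 and 5733.

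Regional patterning genes showed 6 of 25 higher and 2 lower, with a median of 1.06. Hoxa10, a factor of the caudal body axis, gave 463, 752 and 195 against 26.7, 32.5 and 60.9 (3.00 ± 0.71, adjusted p = 0.00692). Irx2 and Irx1, homeobox genes on chromosome 13, rose by 2.84 ± 0.36 and 2.30 ± 0.49. The forebrain factors Emx2 and Meis2 fell by 2.92 ± 0.54 and 2.57 ± 0.46. Emx2 gave 325, 77.8 and 245 against 1874, 1225 and 1500. Zic1, a factor of dorsal neural tube, gave 1415, 1175 and 1298 against 59.4, 983 and 8.42, so neurosphere array 2 came near the tumour range (3.34 ± 0.93, adjusted p = 0.0183). The Zic1 call was lost without tumour array 1 or 3 or neurosphere array 1 or 3, that of Hoxa2 (1.51) without tumour array 3 or neurosphere array 1 or 2, and that of Hoxa4 (2.58) in 5 of the 6 fits that left out 1 array. The list had 3 genes higher without tumour array 3 or neurosphere array 1, and 8 without neurosphere array 3. Of the 47 patterning genes with a probe set, 18 lay at or below the array median on all 6 arrays.

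Among stress genes Nr4a1 and Adm had the largest named differences, in opposite directions. Of 27 immediate early and dissociation stress genes 6 rose and 0 fell. Nr4a1, an immediate early nuclear receptor, gave 1803, 1921 and 2163 against 115, 141 and 298 (3.45 ± 0.32, adjusted p = 1.18e-06), while Fos and Egr1 were high in both groups and not called (-0.05 and 0.06). The respiratory chain had 0 of 31 genes higher and 2 lower, the latter by 0.25 for Atp5a1 and 0.39 for Cox5a. The Atp5a1 call was lost without tumour array 2 or neurosphere array 2. The Cox5a call was lost without tumour array 1 or 3 or neurosphere array 1 or 2, and each of the pair in 5 of the other settings. Centred on array medians, Atp5a1 was at 0.03178 and not called. Cholesterol synthesis had 1 of 20 genes higher (Ebp, at 0.62) and 1 lower (Sc5d, at -1.12), and the ATF4 list likewise Atf4 at 0.62 and Slc7a11 at -1.68, each 5% of its list in either direction. The calls of Ebp and Atf4 were lost in each of the 6 fits that left out 1 array. That of Sc5d was lost without tumour array 3 or neurosphere array 3 and in 3 of the other settings. Another Sc5d probe set had the opposite sign, and the mean of the Sc5d probe sets was at -0.42 and not called. The Slc7a11 call was lost without tumour array 3 or neurosphere array 1 or 3. Of 23 glycolysis and hypoxia genes 3 rose (13%) and 1 fell (4.35%), against 11.2% and 8.21% of all genes. The gene that fell was Adm, the hypoxia-induced peptide adrenomedullin, at 700, 144 and 366 against 6538, 5801 and 7409 (-4.25 ± 0.51). Car9, a carbonic anhydrase also induced by hypoxia, was called in the other direction at 2.27 ± 0.62. The Car9 call was lost without tumour array 1 or 3 or neurosphere array 2, and that of Ndrg1 (2.16), a gene also induced by hypoxia, without tumour array 1 or neurosphere array 1 or 2. The count of glycolysis and hypoxia genes higher was 8 without neurosphere array 3 and 1 without tumour array 1 or neurosphere array 2. Of 22 NRF2 and glutathione genes 2 rose (9.09%) and 4 fell (18.2%), against 11.2% and 8.21% of all genes. Among those that fell was Nfe2l2, the NRF2 factor itself, by 1.84 ± 0.26. The count lower was 2 without tumour array 3 or neurosphere array 1 or 3. The interferon list had Bst2 and Tapbp called higher and 2 of 18 lower, 11.1% each against 11.2% and 8.21% of all genes. Gbp3, an interferon-induced GTPase, was the lowest at -3.34. The Bst2 and Tapbp calls were each lost in 5 of the 6 fits that left out 1 array and in 5 of the other settings, and none of these 6 fits had more than 1 gene of the list higher. The other gene called lower, Gbp2, lost its call without tumour array 2 or 3 or neurosphere array 1. Of 28 Polycomb and chromatin genes 2 were called higher (7.14%, against 11.2% of all genes) and 0 lower. They were Ezh1 at 1.27, whose call was lost without tumour array 3 or neurosphere array 2 or 3, and Cbx6 at 0.30, whose call was lost in 4 of the 6 fits that left out 1 array. The list had 0 genes called without tumour array 3 or neurosphere array 2, and 1 without tumour array 1 or neurosphere array 3.

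The neurosphere arrays differed among themselves in genes of the sex chromosomes. Xist, the RNA that coats the inactive X, gave 2.51, 28.5 and 6.86 on the tumour arrays and 40.7, 71.9 and 5817 on the neurosphere arrays. The Y-linked translation factor Eif2s3y gave 0.201, 24.5 and 1.39 against 4353, 762 and 30.9, and Uty, a Y-linked demethylase relative, 0.343, 4.86 and 1.34 against 136, 145 and 8.77. Neurosphere array 3 was thus high for Xist and low for both Y-linked genes, arrays 1 and 2 were the reverse, and the tumour arrays were low for all of them. Eif2s3y was called at -4.65 ± 1.53 and Uty at -2.19 ± 0.61, Xist was not (-3.34 ± 1.62, adjusted p = 0.170), and the Y-linked calls were lost without neurosphere array 1 or 2. The Eif2s3y call was also lost without any single tumour array and in 3 of the other settings, and that of Uty without tumour array 1. With no filter another Uty probe set was the highest, at -0.56 and not called. The Uty call was also lost with the mean of probe sets. Of the 18 tested imprinted genes 1 rose and 5 fell. The gene that rose was Grb10, an adaptor of growth factor receptors, which gave 14676, 12672 and 12895 against 2200, 1838 and 13.2, with neurosphere array 3 far below the other two (4.65 ± 1.26, adjusted p = 0.0156). Another Grb10 probe set differed by 0.91. Peg10, a paternally expressed gene, gave 247, 967 and 386 against 2665, 2560 and 5155 (-2.80 ± 0.47), and Ndn and Plagl1 fell by 2.12 and 2.35. In the germline list Nxf3, an RNA export factor of testis, gave 5842, 6637 and 5748 against 53.1, 163 and 25.8 (6.24 ± 0.59), and 1 other of 8 genes, Tex15, was called, but not without tumour array 2 or 3 or neurosphere array 1 or 3.

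The median difference ran from -0.36 on chromosome 12 to 0.55 on chromosome 15. On chromosome 15 the median difference of 464 genes was 0.55, with array medians of 0.60, 0.52 and 0.50, and 31.7% of genes were called higher against 11.2% of all genes. Chromosome 8 had a median of 0.38 with 20.3% higher, and the X a median of 0.30 with 26.5% higher. The 6 lowest medians were those of chromosomes 12 (-0.36), 18 (-0.29), 19 (-0.27), 9 (-0.26), 16 (-0.24) and 10 (-0.23). Centring arrays on their medians moved them to -0.22, -0.15, -0.16, -0.13, -0.11 and -0.08, and that of chromosome 15 to 0.69. On chromosome 12 20.2% and on chromosome 18 20.1% of genes were called lower, against 8.21% of all genes. Sox10 and Col2a1 are on chromosome 15 and rose, and so is Mlc1, which fell. Apart from chromosomes 10, 11 and 17, the medians of single neurosphere arrays against the other 2 ran from -0.20 to 0.13. Array 2 was at 0.42 on chromosome 10 and 0.22 on chromosome 11. Array 2 was also at -0.25 on chromosome 17, where array 3 was at 0.29. Leaving out each array in turn moved the chromosome 10 median between -0.29 and -0.07, and those of chromosomes 15 and 12 between 0.50 and 0.58 and between -0.39 and -0.30. In the SP cells of line 3447 the medians of chromosomes 15, 8 and 12 were 0.46, 0.33 and -0.34, and in those of line 4346 they were 0.55, 0.54 and -0.50. These medians were not tested.

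**Figure D4:**
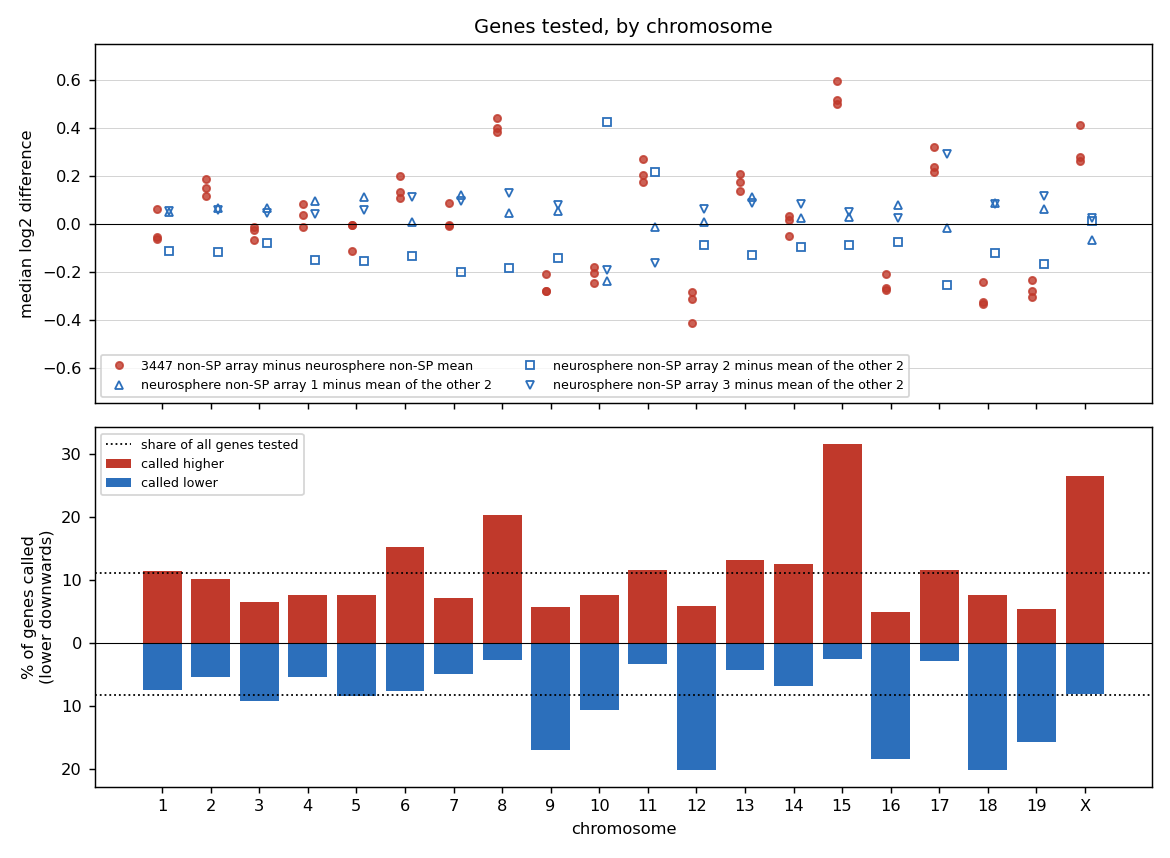
Top, median log2 difference of the genes on each chromosome for single 3447 non-SP arrays against the neurosphere non-SP mean (red circles) and for each neurosphere non-SP array against the other 2 (blue open symbols). Bottom, percent of genes called higher (red, upwards) and lower (blue, downwards), with dotted lines at 11.2% and 8.21%; chromosomes 15, 8 and X lie above and 12 and 18 below, and neurosphere array 2 stands apart on chromosome 10.

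The same contrast in the SP cells sets the non-SP differences beside those inside the gate. Line 3447 SP against neurosphere SP gave 1270 genes higher (10.7%) and 1067 lower (8.96%). The median signals of the 3447 SP arrays were 63.0, 43.2 and 89.3, the last the highest of the 15 arrays. Of the genes called higher in non-SP cells 951 were called higher in SP cells as well, 71.4% of the non-SP and 74.9% of the SP calls, and 688 were called lower in both (70.3% and 64.5%). In 0 genes were the calls opposite. The 2 comparisons share no array, but their arrays may come from the same cultures. In neurospheres the deviations of same-numbered SP and non-SP arrays from their group means correlated at 0.58, 0.52 and 0.62. Neurosphere pairs of unlike number correlated at -0.41 to -0.10. In line 3447 same-numbered arrays correlated at -0.22, -0.25 and -0.12. SP array 1 with non-SP array 2, 2 with 3, and 3 with 1 correlated at 0.37, 0.30 and 0.22. The remaining pairs of that line correlated at -0.18 to -0.03. Whether arrays of unlike number share a culture was not tested. The main fit paired no SP array with a non-SP array, so the shared calls and the following test treat these arrays as independent. In limma's test of whether the tumour effect differed between SP and non-SP cells, 0 of 11908 genes (0%) passed, while 266 (2.23%) had a p below the threshold before adjustment. The lowest p-values belonged to 5 genes, Stk32b, Slc1a1, Smarcb1, Ntn4 and Palm2, each at an adjusted p of 0.999. Stk32b, a kinase gene, differed by 0.89 in non-SP and 3.88 in SP cells, a difference of 2.99 ± 0.66. Ntn4, a secreted netrin, differed by -2.32 in non-SP and -0.37 in SP cells (1.95 ± 0.50). Slc1a1 differed by 2.47 and 3.92 (1.46 ± 0.36).

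Line 4346, of which SP arrays were used, gave 1663 genes higher (14%) and 1228 lower (10.3%) against neurosphere SP. Its array 3 had 3'/5' signal ratios of 5.30 for actin and 2.00 for Gapdh, the highest of the 15 arrays. Arrays 1 and 2 of that line had 3.17 and 3.22 for actin and 1.51 and 1.43 for Gapdh. On the second principal component array 3 stood at 75.3, against 22.9 and 26.6. Several of the lowest genes of the 3447 non-SP cells were much nearer to 0 in line 4346. Ccnd2 was at -1.30 in 4346 SP cells (adjusted p = 0.18) against -8.31 in 3447 non-SP and -5.59 in 3447 SP cells. Adgrl2 was at -1.94 against -8.36 and -6.85, Gja1 at -1.90 against -6.72 and -5.80, and Robo1 at -1.51 against -6.68 and -5.42. Egfr, Grm5 and Mlc1 were low in line 4346 too, at -7.20, -6.78 and -8.39. Among genes that rose, Col2a1, Sox10 and Erbb3 were at 8.29, 8.24 and 6.63 in 4346 SP cells. Mmp2, a secreted gelatinase, was at 6.67 there against 2.39 in 3447 non-SP cells, but the latter value was 1.05 with 1 added to the signal, 1.16 with 64 added, and 0.72 with the 6 arrays fitted alone or with the replicate block. It was not called with 1 added, with the 6 arrays alone or with the replicate block. Another Mmp2 probe set differed by 0.71. Each setting chose the probe set of highest mean anew, so these values may come from different probe sets. The effect of a setting and a change of probe set cannot be told apart here. The 4346 values come from SP cells of another line, and the difference between the lines was not tested here.

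**Figure D5:**
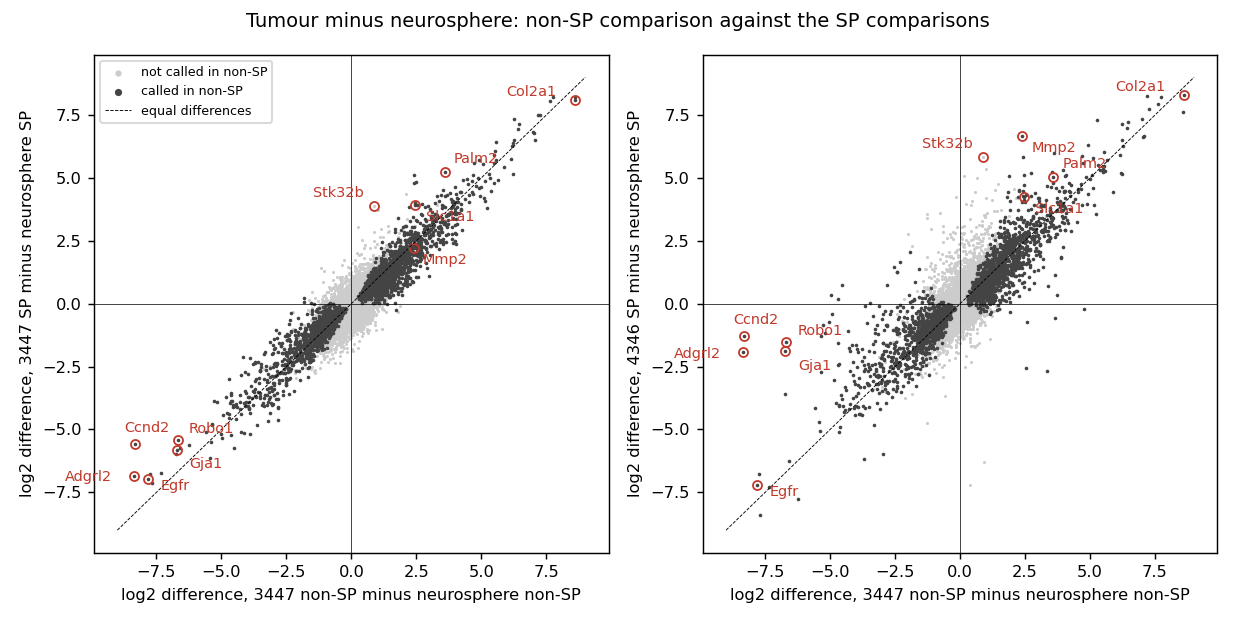
Log2 difference of each gene in 3447 non-SP against neurosphere non-SP (horizontal) and in 3447 SP (left) or 4346 SP (right) against neurosphere SP (vertical); called non-SP genes are dark and 10 genes are circled. On the left Ccnd2 lies at -8.31 and -5.59; on the right Ccnd2, Adgrl2, Gja1 and Robo1 lie between -1.94 and -1.30 while Egfr is at -7.20.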

How the data were processed

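Per the labels' protocols, total RNA of sorted cells was isolated with a column kit and amplified and biotin-labelled with the NuGEN Ovation Pico kit. The deposited intensities are linear MAS5 signals, made by the authors with Affymetrix Expression Console per the submitters' processing notes, which name no version. On each of the 15 arrays, the mean after trimming 2% of probe sets from either end was 500. Probe sets (45037 after 64 controls) were quantile-normalized over the 15 arrays and 16 was added before log2, which understates changes of dim genes. The 26256 above their array's median on at least 3 arrays were kept, and the highest of each gene's probe sets by mean represented it, leaving 11908 of 18193 annotated genes. Genes were named from the platform annotation. Of 45037 probe sets, 34945 had 1 symbol, 932 several and 9160 none. limma 3.58.1 in R 4.3.3 fitted 5 group means with 10 residual degrees of freedom and a trend of spread on level, with two-sided tests and Benjamini-Hochberg adjustment. The number of arrays limits the precision.

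The 40 gene lists held 945 entries (903 genes, 40 of them on more than 1 list); 890 entries had a probe set and 731 passed the filter. The rule named the 15 highest and 15 lowest called genes with separate arrays, up to 3 called members of each list in each direction, a fixed set of stem cell, lineage and transporter genes, and the 5 genes of smallest p for the difference between SP and non-SP; other genes were chosen after their values were seen. The comparison, the lists and the rule were chosen with earlier results of these data known. The procedure was tested on simulated data. Equal replicate numbers did not pair the compared arrays: the deviations of same-numbered arrays from their group means correlated at -0.01, 0.09 and -0.05.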

Additional observations from a re-analysis of the deposited data

Results flagged for a closer look

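Of 3481 probe sets without a gene symbol that passed the filter, 350 were called (10.1%), 175 higher and 175 lower. They were singled out because the comparison of genes does not use them. Among probe sets with 1 symbol, 16.1% of 22197 were called.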

How the results depend on the processing

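The count of genes called, 2310 as reported, lay between 1752 and 3061 with other scalings, constants, filters, probe set rules and fits, apart from a test against a difference of 1 on the log2 scale, which called 466 genes, 285 higher and 181 lower. Centring arrays on their medians gave 553 genes lower against 978, with 1199 higher, and turned Atp5a1 from -0.25 to 0.03178. Leaving out 1 array gave 1631 to 2078 genes, 945 to 1225 higher and 679 to 853 lower; fewer samples enter these fits. Of 162 named and called genes, 124 stood in all 6 of them. The replicate block over the 6 non-SP arrays gave 2119 genes, 1225 higher, with 151 of the 162 named calls; the numbers do not pair these arrays. With line and replicate number together as a random block, in place of a culture label, 2299 were called. In line 3447 the deviations of same-numbered SP and non-SP arrays correlated at -0.22, -0.25 and -0.12. The number may therefore not mark a shared culture in that line. Arrays of unlike number there correlated at up to 0.37 (SP array 1 with non-SP array 2), and the random block did not join them. Array weights gave 3061 and no filter 2035, over 18193 genes. The difference of the effect between SP and non-SP had 0 genes called in every alternative in which it was fitted. Depth is not recorded for arrays; signals near the floor limit what can be said of dim genes, as the 4638 uncalled genes with intervals reaching past 1 show. The tumour arrays share 1 line, the genotype of each array is not given, and batch was not given.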
